A study of Homo sapiens with 6 samples.

Results

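In UM-SCC1 cells, 9 genes of the adherens junction and of epithelial adhesion were examined. These were the cadherins CDH1 and CDH3, the catenins CTNNA1, CTNNB1 and CTNND1, the nectins NECTIN1 and NECTIN4, the nectin adaptor AFDN, and the adhesion molecule EPCAM. They were chosen by gene name, and all 9 were found among the 14959 genes of the deposited expression table. UM-SCC1 is an established human cell line from a squamous cell carcinoma of the head and neck. It was transfected with miR-204-5p mimics (3 libraries) or with control mimics (3 libraries), a mimic being a short synthetic RNA that the cell uses in place of the mature miRNA. The general transfection methods give 48 h of culture, and no separate time is given for RNA-seq. All 6 libraries were of total RNA from the same line, so the groups differed in the mimic alone as far as the labels state. The study asked how miR-204-5p acts on epithelial to mesenchymal transition, in which loss of E-cadherin is a hallmark.

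Adherens junctions hold neighbouring epithelial cells together. The extracellular part of a classical cadherin binds the same cadherin on the next cell, while its tail binds p120-catenin (CTNND1) near the membrane and beta-catenin (CTNNB1) further along, and beta-catenin in turn binds alpha-catenin (CTNNA1), which couples the complex to actin. Nectins form a parallel adhesion system that is tied to actin by afadin (AFDN). A miRNA binds mRNA mainly through its seed, bases 2 to 8 of its 5′ end, and commonly lowers the level of the mRNA it binds.

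The mature miRNA is shown first, since its seed defines the matches looked for in the member mRNAs. The seed is in capitals, the sequence is that of RefSeq (GRCh38.p14, chr9:70810031-70810052, minus strand), and it is written 5′ to 3′.
miR-204-5p: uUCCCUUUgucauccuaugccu

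The longest 3′UTR of each member among protein-coding transcripts of GENCODE 29 (GRCh38) was searched on the mRNA strand for AAAGGGAA (8mer), AAAGGGA (7mer-m8) and AAGGGAA (7mer-A1), each gene being given the longest match it held. Of the 9 members, 3 (33.3%) held a match of 7 bases, against 27.1% of 14664 genes holding one of 7 or 8 bases. The matched bases are in capitals below, with flanking 3′UTR bases in lower case.
NECTIN1, 7mer-m8: gccagctggcaAAAGGGAggtctagccca
EPCAM, 7mer-A1: gattatagaagAAGGGAAatagcaaatgg
CTNNA1, 7mer-A1: gggtttgagagAAGGGAAtttggctcaac
The NECTIN1 match lies in exon 6 of ENST00000264025 at chr11:119662228-119662234 on the minus strand. The EPCAM match lies at chr2:47386639-47386645 on the plus strand, 26 bases after the stop codon. The CTNNA1 match lies in exon 19 of ENST00000627109 at chr5:138934426-138934432 on the plus strand. Only the EPCAM match is part of the transcript that the deposited table lists for its gene. The CTNNA1 match depends on the choice of transcript: with every transcript that has a coding part included, nonsense-mediated decay transcripts too, the longest 3′UTR of CTNNA1 held no match, that of CDH3 held 1 match of 6 bases, NECTIN1 and EPCAM kept theirs, and the share over all genes was 29.6%. The restriction to protein-coding transcripts was made after that result had been seen. CTNND1 and NECTIN4 held a single match of 6 bases (AAGGGA), and CDH1, CDH3, CTNNB1 and AFDN held none in the protein-coding transcripts. A match of letters does not show binding.

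Expression is given in FPKM as computed by the authors, a count of sequenced fragments divided by transcript length and by the size of the library. Fold changes are differences of log2(FPKM + 1) between miR-204-5p mimics and control mimics, given with the standard error (SE), and were tested with limma across all 14959 genes. A gene was called where its two-sided p-value was under 0.05 after Benjamini-Hochberg adjustment over the whole table. The labels number the libraries but do not say that they came from separate cultures, so p-values measure the spread between these libraries. In RNA from a whole culture, less RNA per cell and fewer cells holding the RNA cannot be told apart.

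With miR-204-5p mimics, CDH1 rose and NECTIN1 and EPCAM fell, while the other 6 members did not pass the test. Of 9 members, 3 (33.3%) were called, against 40.8% of all genes. The 1 member called higher stood against 23.9% of all genes, and the 2 called lower against 16.8%. These shares by direction depend on scaling. Of all calls, 58.7% were higher as reported, 51.3% with libraries scaled to equal medians and 50.1% with quantile normalization. The median FPKM of genes above 0 in all libraries was 6.46 to 6.51 with miR-204-5p mimics and 6.26 to 6.32 with control mimics. The groups did not overlap for 4 of 9 members, against 53.6% of all genes. CDH1 and AFDN were the 2 whose groups did not overlap and were higher (30.9% of all genes), and NECTIN1 and EPCAM the 2 that were lower (22.7%). With 9 genes, these shares were near those of the whole table. The median log2 fold change of the 9 was -0.04, and that of all genes was 0.03.

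**Figure D1:**
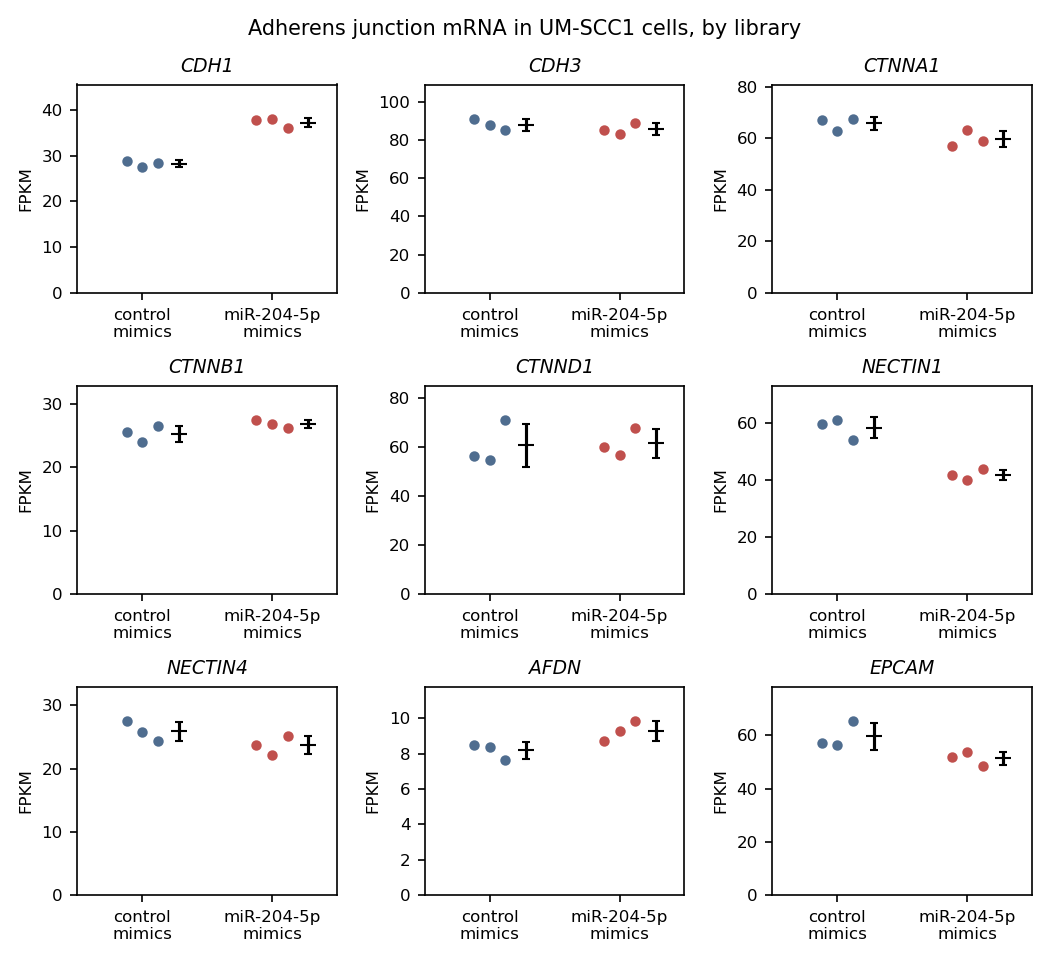
FPKM of the 9 genes in each library, with control mimics in blue and miR-204-5p mimics in red, replicates 1 to 3 from left to right, and black marks for the mean ± SD (n = 3). The 3 libraries with miR-204-5p mimics all lay above the control libraries for CDH1 and below them for NECTIN1 and EPCAM, and the groups of CDH3, CTNNA1, CTNNB1, CTNND1 and NECTIN4 overlapped.

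Of the cadherins, CDH1 (E-cadherin, the main cadherin of epithelia) measured 37.7, 37.9 and 36.0 FPKM with miR-204-5p mimics, and 28.9, 27.4 and 28.4 FPKM with control mimics. The lowest library with miR-204-5p mimics stood well above the highest control library. CDH1 rose by 31.7% in mean FPKM, a change of 0.39 on the log2 scale (SE 0.040, limma adjusted p = 0.000618). It passed under all 11 alternative settings, at 0.34 to 0.41.

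CDH3 (P-cadherin, the cadherin of basal epithelial cells) measured 84.9, 83.0 and 88.8 FPKM with miR-204-5p mimics and 90.7, 87.7 and 84.9 FPKM with control mimics. The groups overlapped, the middle control library lying below the highest library with miR-204-5p mimics. Its log2 fold change was -0.04 (95% interval -0.14 to 0.06, limma adjusted p = 0.532). The genes lie beside each other on chromosome 16 on the plus strand, CDH3 at chr16:68636189-68722616 and CDH1 at chr16:68737225-68835548, and CDH3 remained the more abundant mRNA in every library. CDH1 made up 30.8%, 31.4% and 28.8% of the summed FPKM of both cadherins with miR-204-5p mimics, and 24.1%, 23.8% and 25.1% with control mimics. Every library with miR-204-5p mimics thus held a larger CDH1 share than any control library. The ratio of CDH1 to CDH3 within a library averaged 0.435 ± 0.0270 (SD, n = 3) for miR-204-5p mimics and 0.322 ± 0.0113 (n = 3) for control mimics, a log2 difference of 0.43. The two-sided exact permutation test gave p = 0.1, the smallest value that 3 against 3 libraries allow. A ratio within a library does not depend on how that library was scaled.

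The catenins did not pass the test. CTNNA1 (alpha-catenin, the link to actin) measured 57.1, 63.1 and 58.9 FPKM with miR-204-5p mimics and 67.1, 63.0 and 67.4 FPKM with control mimics. The overlap came from replicate 2 of both groups, which stood at nearly the same value. The log2 fold change was -0.14 (95% interval -0.26 to -0.02, limma adjusted p = 0.0670). CTNNA1 passed under 2 of 11 alternatives, at -0.18 with libraries scaled to equal medians (limma adjusted p = 0.0277) and at -0.18 without miR-204-5p mimics replicate 2 (limma adjusted p = 0.0366).

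CTNNB1 (beta-catenin, which also acts in Wnt signalling) measured 27.4, 26.8 and 26.2 FPKM with miR-204-5p mimics and 25.5, 23.9 and 26.4 FPKM with control mimics. The highest control library stood above the lowest library with miR-204-5p mimics. The log2 fold change was 0.08 (95% interval -0.03 to 0.20, limma adjusted p = 0.214). CTNND1 (p120-catenin, which holds cadherins at the membrane) measured 59.8, 56.5 and 67.7 FPKM with miR-204-5p mimics and 56.3, 54.4 and 70.7 FPKM with control mimics. Replicate 3 was the highest in both groups, and CTNND1 had the largest SE of the 9 genes (0.113). Its log2 fold change was 0.02 (95% interval -0.25 to 0.30, limma adjusted p = 0.887), and its sign changed under 5 of 11 alternatives, among them leaving out miR-204-5p mimics replicate 3 (-0.048) and leaving out replicate 1 (-0.021) or 2 (-0.046) of the control mimics.

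Each complex pairs a cadherin with a beta-catenin and an alpha-catenin, so the mRNAs were also compared with each other. The ratio of CDH1 to CTNNB1 averaged 1.39 ± 0.0232 (SD, n = 3) for miR-204-5p mimics and 1.12 ± 0.0391 (n = 3) for control mimics, a log2 difference of 0.31. That of CTNNA1 to CTNNB1 was 2.23 ± 0.137 (n = 3) against 2.61 ± 0.0497 (n = 3), a log2 difference of -0.23. In both ratios the groups did not overlap, and the two-sided exact permutation test gave p = 0.1, its smallest possible value. The ratios are of mRNA and not of protein.

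Among the nectins, NECTIN1 (an adhesion molecule and viral entry receptor) measured 41.6, 39.9 and 43.6 FPKM with miR-204-5p mimics and 59.6, 60.8 and 54.0 FPKM with control mimics. Every library with miR-204-5p mimics stood below every control library. NECTIN1 fell by 0.47 on the log2 scale (SE 0.058, limma adjusted p = 0.00122), and this was the largest change of the 9 genes. It passed under all 11 alternatives, at -0.52 to -0.44.

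NECTIN4 (a nectin of epithelia, overexpressed in several carcinomas) measured 23.8, 22.2 and 25.2 FPKM with miR-204-5p mimics and 27.5, 25.8 and 24.4 FPKM with control mimics. The lowest control library stood below the highest library with miR-204-5p mimics. The log2 fold change was -0.12 (95% interval -0.27 to 0.03, limma adjusted p = 0.172). NECTIN4 stood at 0.568 ± 0.0111 of NECTIN1 (SD, n = 3) for miR-204-5p mimics and at 0.446 ± 0.0189 (n = 3) for control mimics, a log2 difference of 0.35. The groups of this ratio did not overlap (two-sided exact permutation test, p = 0.1, the smallest possible).

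AFDN (afadin) measured 8.75, 9.29 and 9.84 FPKM with miR-204-5p mimics and 8.52, 8.40 and 7.65 FPKM with control mimics. The groups did not overlap, although the highest control library lay close to the lowest library with miR-204-5p mimics. Its log2 fold change was 0.16 (95% interval 0.01 to 0.32), which did not pass after adjustment (limma adjusted p = 0.0865).

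EPCAM (a homophilic adhesion molecule of epithelia, outside the cadherin complex) measured 51.7, 53.7 and 48.7 FPKM with miR-204-5p mimics and 57.2, 56.4 and 65.3 FPKM with control mimics. Control replicate 3 stood apart at the top, and the groups did not overlap. EPCAM fell by 0.21 on the log2 scale (SE 0.068, limma adjusted p = 0.0477). The call was close to the threshold: it was lost whichever 1 of the 6 libraries was left out, with log2 fold changes of -0.25 to -0.14 and limma adjusted p of 0.0530 to 0.128. Without control mimics replicate 3, the fold change was -0.14.

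**Figure D2:**
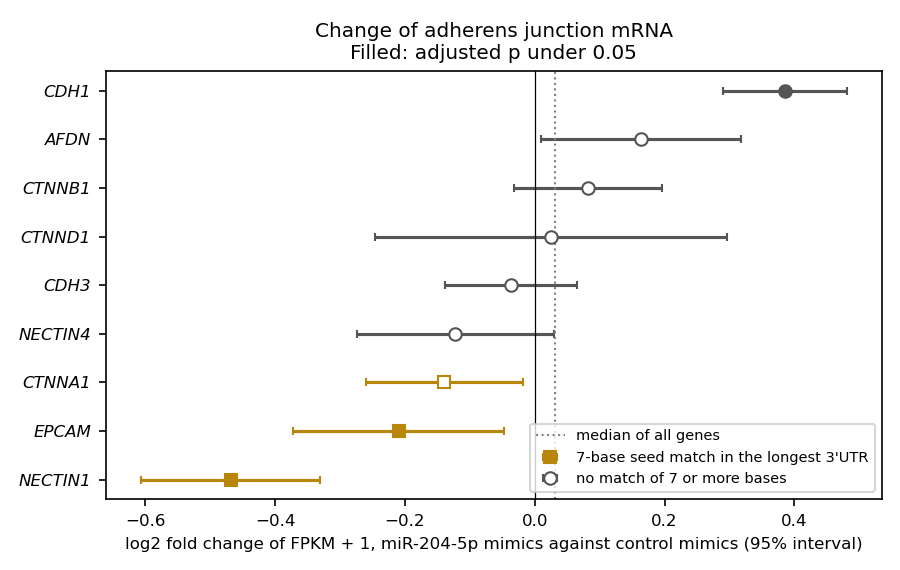
Log2 fold change of FPKM + 1 with its 95% interval for each gene, miR-204-5p mimics against control mimics, with filled symbols for an adjusted p under 0.05 and squares for a seed match of 7 bases in the longest 3′UTR. NECTIN1 at -0.47, EPCAM at -0.21 and CTNNA1 at -0.14 are the 3 lowest and the 3 squares, though NECTIN4 at -0.12 lies close to CTNNA1 and fell below it without any 1 of 3 libraries. CTNNA1 is drawn as a square only under the protein-coding choice of transcripts.

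The 3 genes with a seed match of 7 bases had the 3 lowest fold changes of the 9 in the full data and under 8 of 11 alternatives. Of these 8, the minimum mean FPKM and the replicate block leave each fold change as it was, so they could not alter the order. In the other 3 of the 11, each with 1 of the 6 libraries left out, NECTIN4 stood below CTNNA1. It stood at -0.13 against -0.11 without miR-204-5p mimics replicate 1, at -0.16 against -0.13 without miR-204-5p mimics replicate 3, and at -0.16 against -0.12 without control mimics replicate 3. The order is a description of 9 genes, the CTNNA1 match depends on the transcripts read, and the cause of the order was not tested. The transcripts listed for NECTIN1 and CTNNA1 do not hold the matches, and it is not stated whether FPKM covers only those transcripts.

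Between genes, levels were compared on the FPKM scale. In control mimics, CDH3 was highest at 87.8 FPKM, followed by CTNNA1 at 65.8, CTNND1 at 60.5, EPCAM at 59.6 and NECTIN1 at 58.1 FPKM, and these 4 overlapped from one to the next. CDH1 at 28.2, NECTIN4 at 25.9 and CTNNB1 at 25.3 FPKM formed a lower overlapping run, and AFDN was lowest at 8.19 FPKM. With miR-204-5p mimics the order ran CDH3, CTNND1, CTNNA1, EPCAM, NECTIN1, CDH1, CTNNB1, NECTIN4 and AFDN, and neighbours overlapped only for CTNND1 and CTNNA1. NECTIN1 and CDH1, 58.1 and 28.2 FPKM in control mimics, drew together to 41.7 and 37.2 FPKM. The transcripts that the table lists for CTNNA1 (696 bases), AFDN (963 bases) and NECTIN1 (1377 bases) are short beside the longest annotated ones (3831, 7593 and 5840 bases), and it is not stated whether FPKM covers the gene or that transcript. Levels between genes carry that limit. The table gives a gene 1 length for both groups, but fold changes of CTNNA1, AFDN and NECTIN1 are likewise of whichever transcripts FPKM covers.

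**Figure D3:**
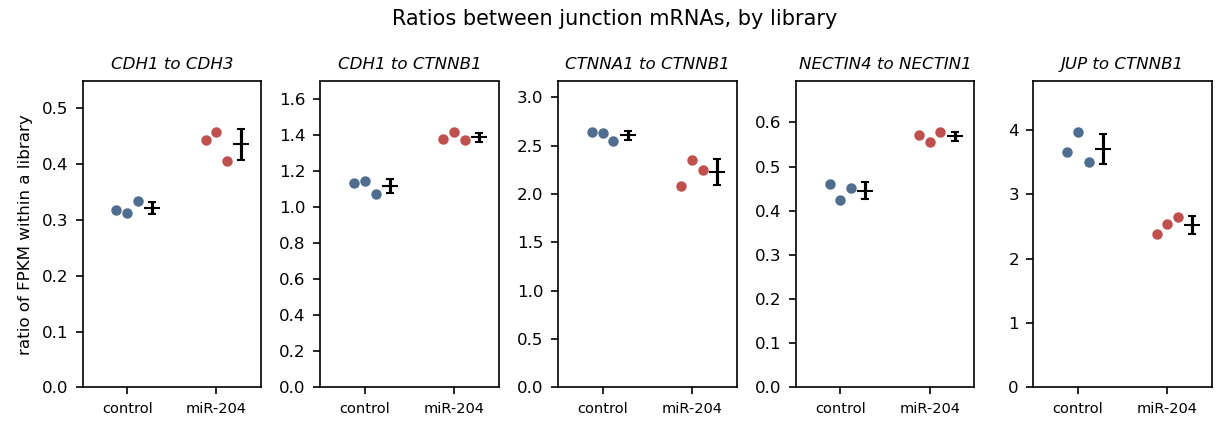
Ratio of FPKM between named mRNAs within each library, with control mimics in blue, miR-204-5p mimics in red (axis label miR-204) and black marks for the mean ± SD (n = 3). The groups did not overlap in any of the 5 ratios. With miR-204-5p mimics, CDH1 stood higher relative to CDH3 and CTNNB1, and the mean ratio of JUP to CTNNB1 was 2.52 in place of 3.71.

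Among paralogs and partners, CTNNAL1 and ARVCF changed by more than any of the 9 genes. So did CADM4, which is outside that set and was named from the list of nectin-like molecules by its large change. JUP (plakoglobin, which can take the place of beta-catenin and also serves desmosomes) fell by 0.46 on the log2 scale, from 93.5 ± 1.08 to 67.5 ± 2.17 FPKM (SD, n = 3 each; limma adjusted p = 0.000232). The ratio of JUP to CTNNB1, chosen after the values had been seen, averaged 2.52 ± 0.136 for miR-204-5p mimics and 3.71 ± 0.233 for control mimics (exact permutation p = 0.1, the smallest possible, n = 3 each). CTNNAL1 (an alpha-catenin relative) rose from 7.84 ± 0.386 to 15.4 ± 1.02 FPKM (n = 3 each), an increase of 0.89 on the log2 scale (limma adjusted p = 0.000173). ARVCF (a p120-catenin relative) rose from 2.45 ± 0.294 to 5.51 ± 0.182 FPKM (n = 3 each), an increase of 0.92 on the log2 scale (limma adjusted p = 0.000315). PKP4, another p120-catenin relative, did not pass (log2 fold change -0.03, 95% interval -0.16 to 0.10; 0.016 without miR-204-5p mimics replicate 1). The catenin and armadillo genes analysed held 3 called of 4, against 40.8% of all genes, of which 2 rose (23.9% of all genes) and 1 fell (16.8%).

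Of the other nectins and nectin-like molecules, 1 of 6 (16.7%) was called, against 40.8% of all genes, and it was higher (23.9% of all genes). CADM4 rose from 21.1 ± 0.726 to 36.8 ± 1.65 FPKM (SD, n = 3 each), an increase of 0.77 on the log2 scale (limma adjusted p = 0.000110). NECTIN2, a close relative of NECTIN1, did not pass (log2 fold change -0.05, 95% interval -0.15 to 0.05). NECTIN3 at -0.24 (95% interval -0.43 to -0.04, limma adjusted p = 0.0562) and PVR at -0.31 (95% interval -0.86 to 0.24) did not pass either. NECTIN3 passed at -0.30 without control mimics replicate 3, which made 2 of the 6 called, and under equal medians and quantile normalization. Of 20 other cadherins, 8 were analysed and 0 were called by limma, against 40.8% of all genes. Of the 8, 1 had an unadjusted limma p under 0.05 (CDH24, 5.28 ± 0.395 to 6.14 ± 0.0521 FPKM, n = 3 each, chosen after its values were seen), and 6 had a mean under 1 FPKM. Without control mimics replicate 2, 1 of the 8 was called. CDH2 was not analysed here.

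Genes that tie the junction to actin, polarity and scaffold proteins held 14 called of 26 (53.8%, against 40.8% of all genes). Of the 26, 5 (19.2%) were called higher, against 23.9% of all genes, and 9 (34.6%) lower, against 16.8%. SHROOM3 (apical constriction) rose by 0.62, ACTN1 (alpha-actinin) by 0.44 and AJUBA by 0.53 on the log2 scale. AJUBA lost its call without replicate 1 or 2 of either group, at 0.39 to 0.57, and with equal medians, at 0.49 (limma adjusted p = 0.0537). DLG5 (polarity scaffold) fell by 0.76, MAGI1 (scaffold) by 0.53 and VASP (actin elongation) by 0.44. MAGI1 was low, at 1.43 ± 0.153 FPKM in control mimics and 0.686 ± 0.141 FPKM with miR-204-5p mimics (n = 3 each). It stood at -0.97 with 0.1 added to FPKM in place of 1. VCL (vinculin, which binds alpha-catenin under tension) did not pass, with a log2 fold change of -0.07 (95% interval -0.17 to 0.04). PLEKHA7, a partner of p120-catenin, did not pass either (0.20, 95% interval 0.02 to 0.38, limma adjusted p = 0.0804).

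Cadherin turnover and signalling enzymes held 13 called of 22 (59.1%, against 40.8% of all genes). Of the 22, 6 (27.3%) were called higher, against 23.9% of all genes, and 7 (31.8%) lower, against 16.8%. CSNK1E rose by 0.47, FYN by 0.40 and CBLL1 (Hakai, a ubiquitin ligase of E-cadherin) by 0.49, and the CBLL1 call was lost without any 1 library other than control mimics replicate 2, at 0.40 to 0.55, and with quantile normalization, at 0.43. PTPRF (a receptor phosphatase that binds the cadherin complex) fell by 0.34, PIP5K1C by 0.27 and NCSTN (gamma-secretase subunit) by 0.27. PTPRF lost its call without miR-204-5p mimics replicate 2 or control mimics replicate 1 or 2, at -0.33 to -0.29, and the list held 8 calls without control mimics replicate 1. In the group of small GTPases and regulators, 4 of 11 (36.4%) were called, against 40.8% of all genes. Of the 11, 2 (18.2%) were higher, against 23.9% of all genes, and 2 (18.2%) lower, against 16.8%. ARHGAP35 (p190RhoGAP) fell by 0.68, RHOA fell by 0.175, and RAPGEF1 (a Rap1 activator) rose by 0.25 and RACGAP1 by 0.24. Calls numbered 2 without miR-204-5p mimics replicate 2 or without control mimics replicate 2 or 3. RAPGEF1 lost its call without each of these 3 libraries, at 0.23 to 0.26, as did RHOA, also without miR-204-5p mimics replicate 1, at -0.16 to -0.15.

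Regulators of CDH1 transcription held 9 called of 19 (47.4%, against 40.8% of all genes). Of the 19, 1 (5.26%) was called higher (TWIST1, 0.44 on the log2 scale), against 23.9% of all genes, and 8 (42.1%) lower, against 16.8%. The TWIST1 call was lost without miR-204-5p mimics replicate 2 (0.46) or 3 (0.36). OVOL1 fell by 1.06, from 7.21 ± 0.654 to 2.95 ± 0.296 FPKM (SD, n = 3 each, limma adjusted p = 0.000282), and GRHL1 by 1.03, from 27.5 ± 0.701 to 13.0 ± 0.220 FPKM (n = 3 each, limma adjusted p = 3.13e-05). Both are known as transcription factors of epithelial differentiation. SNAI2 fell by 0.49. The other lower calls were GRHL2 (-0.42), GRHL3 (-0.39), ELF3 (-0.31), TCF3 (-0.24) and FOXA2 (-0.19, under 1 FPKM in both groups). With a library left out, the list held 6 to 8 calls. The part of these genes, TWIST1 included, in the change of CDH1 was not tested. Of beta-catenin feedback genes, 2 of 5 (40.0%) were called, against 40.8% of all genes. Both were higher (23.9% of all genes), TCF7 at a log2 fold change of 0.30 and RNF43 at 0.27. Both lost their call without any 1 library other than miR-204-5p mimics replicate 1, at 0.22 to 0.34 and 0.22 to 0.29, which left 0 of 5 (limma). Both also lost it with quantile normalization, at 0.23 and 0.19, as did TCF7 with a pseudocount of 0.1, at 0.51, and with equal medians, at 0.28. Over all 8 lists together, 46 of 101 genes (45.5%) were called, against 40.8% of the whole table. Of these, 19 (18.8%) were higher, against 23.9% of all genes, and 27 (26.7%) were lower, against 16.8%. The shares of all genes by direction depend on scaling, and the lists were not split by direction under the alternatives.

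**Figure D4:**
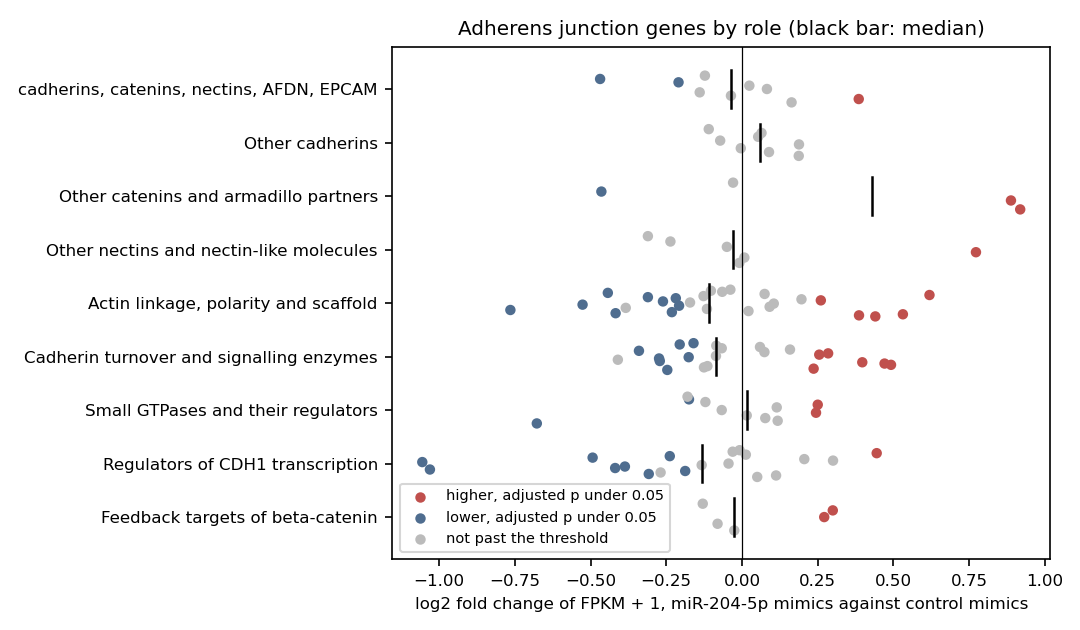
Log2 fold change of each adherens junction gene by role, with red and blue for genes called higher and lower, grey for genes that did not pass, and black bars for medians. Genes of each role lie on both sides of 0, OVOL1 at -1.06 and GRHL1 at -1.03 are the lowest points, and CTNNAL1 at 0.89 and ARVCF at 0.92 the highest.

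The cells carried the markers of squamous epithelium. All 8 listed markers were present, summing to 801 to 891 FPKM with miR-204-5p mimics and 927 to 951 FPKM with control mimics. Of the 8, limma called 7 (87.5%, against 40.8% of all genes). The 5 lower made 62.5%, against 16.8% of all genes, and the 2 higher 25.0%, against 23.9%. TP63 and DSG3 both fell by 1.01 on the log2 scale, and KRT17, the marker not called, stood at -0.18. Their part in the changes of the members was not tested. Markers of other cell types had means under 1 FPKM, apart from COL1A1 and CD14. In control mimics COL1A1 stood at 8.37 FPKM and CD14 at 16.25 FPKM, both above AFDN at 8.19 FPKM. Fibroblast genes (4 of 6 analysed) summed to 9.81 to 11.6 and 8.58 to 9.41 FPKM, mostly COL1A1, and endothelial genes (3 of 3) to at most 0.767 FPKM. Immune genes (4 of 4) summed to 12.3 to 14.0 and 16.5 to 17.4 FPKM, mostly CD14. Limma called 2 of 4 fibroblast genes (50.0%), 1 of 3 endothelial (33.3%) and 1 of 4 immune (25.0%), against 40.8% of all genes. COL1A2 (0.28), PDGFRB (0.21) and VWF (0.17) were higher (23.9% of all genes), each under 1 FPKM. CD14 was lower by 0.37 (16.8% of all genes), at 12.4 FPKM with miR-204-5p mimics. Reads were not stated to be counted by strand, and ULK4 (1.60 and 0.568 FPKM) overlaps CTNNB1 on the opposite strand, as AP001931.1 (0.687 and 0.840 FPKM) overlaps CTNND1 on the same strand. Depth was inferred from the step of low FPKM values in genes with 1 annotated transcript, at 13.1 to 15.9 M (mega) fragments for miR-204-5p mimics and 13.9 to 16.4 M for control mimics. Only 31.7% to 39.0% of those low values were whole multiples of the step, to a tolerance of 0.02, so counts were not recovered. The search range for the step was raised after a first search had settled on a smaller step in 5 of 6 libraries.

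**Figure D5:**
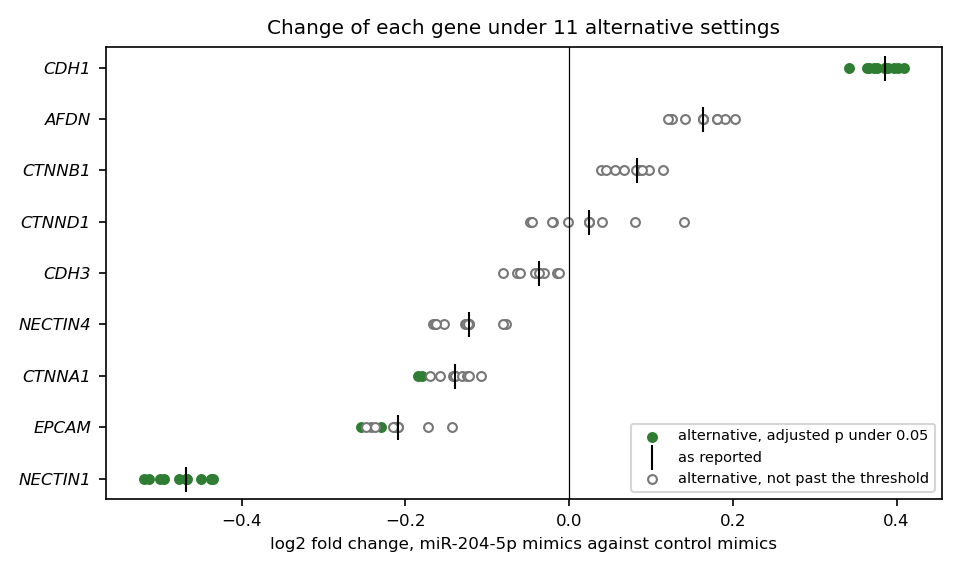
Log2 fold change of each gene under 11 alternative settings, with green for an adjusted p under 0.05, open circles for none and a bar for the reported value. CDH1 and NECTIN1 stay green throughout, EPCAM is green in 4 and CTNNA1 in 2, and CTNND1 falls on both sides of 0.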

How the data were processed

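Total RNA of UM-SCC1 cells was sequenced on Illumina instruments, 3 libraries after miR-204-5p mimics and 3 after control mimics. The authors deposited 1 FPKM value for each gene and library, for 14959 genes. The submitters' processing notes name HISAT2, StringTie and hg38, without versions, and the annotation is not given in the sources used here. The table also holds the authors' own log2 ratios, p-values and false discovery rates from edgeR, which were not used. No counts were available, so log2(FPKM + 1) was fitted with limma 3.58.1 (R 4.3.3; lmFit, eBayes with trend, no filter, all 6 libraries, no covariate). Ratios were tested by exact permutation. Tables and figures were made with Python 3.11.15, numpy 2.4.6, pandas 2.3.3 and matplotlib 3.10.9.

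The 9 members and the lists of other genes were chosen with earlier results of these data known. From each list, up to 3 higher and 3 lower called genes with the largest change, a mean of at least 1 FPKM in the higher group and no overlap were named, with all members and a fixed set of paralogs and partners. The remaining lower calls among regulators of CDH1 transcription were named after their values had been seen. Of that set, 1 gene is not reported here and CDH2 and CTNNA2 were not analysed here. The fit was tested on simulated data. Its first simulation, which smoothed the spread over genes, recovered fewer changed genes than a limit set for it. The simulated spread was then taken gene by gene and that limit was dropped, so the test checked signs, sizes and false calls only. 3′UTRs came from GENCODE 29, and listed transcripts of all 9 members matched it.

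Alternatives were the replicate number as a block, a pseudocount of 0.1, a minimum mean FPKM of 1, equal medians, quantile normalization and each library left out. 3′UTRs were first read from every transcript with a coding part and then, after that result had been seen, from protein-coding transcripts only. The latter is the version reported, with the former beside it.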

Additional observations from a re-analysis of the deposited data

How the results depend on the processing

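Fold changes and counts of calls were recomputed under 11 alternatives, but a gene below the minimum mean FPKM, such as NECTIN3, had no value under that alternative. Ratios were recomputed only with a pseudocount of 1 and with each library left out, and that of JUP to CTNNB1 was not recomputed. CDH1 and NECTIN1 kept their direction and call in all 11. With equal medians, CTNNA1 passed at -0.18 and CTNND1 stood at -0.020. With quantile normalization, CTNND1 stood at -0.0016. PKP4 ranged from -0.070 to 0.016 with 1 library left out, the latter without miR-204-5p mimics replicate 1. The causes were not tested. With 1 library left out, CTNNA1 ranged from -0.18 to -0.11, CTNND1 from -0.048 to 0.14 (-0.048 without miR-204-5p mimics replicate 3, -0.021 and -0.046 without control mimics replicates 1 and 2) and EPCAM from -0.25 to -0.14. The number of members called was 4 with equal medians, 2 with the replicate block, 3 under the other alternatives on all libraries and 2 to 3 with a library left out. Calls among other cadherins numbered 1 with a mean FPKM of at least 1 and 0 to 1 with a library left out, and those among other nectins 2 with equal medians or quantile normalization and 1 to 2. Calls with a library left out ranged from 8 to 11 for turnover enzymes, 2 to 5 for GTPases and 0 to 2 for beta-catenin feedback genes, which stood at 1 with a pseudocount of 0.1, equal medians or quantile normalization. With quantile normalization, the 1 call was of a feedback gene other than TCF7 and RNF43. Libraries of the same number did not deviate together (correlations of -0.040, -0.021 and -0.108), so no shared effect of the number was visible. The labels do not say whether libraries of the same number were paired, and these correlations cannot settle it. With the replicate block, EPCAM stood at -0.21 (limma adjusted p = 0.110), the calls of AJUBA, PTPRF, RAPGEF1 and RNF43 were lost, beta-catenin feedback calls numbered 1, and 5096 genes were called in all, against 6098.

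The table holds FPKM and no counts, its depth is inferred, and it lists a single transcript for each gene. With 3 libraries a group, no permutation p can fall below 0.1.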
